A study of Mus musculus with 6 samples.

Results

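Genes that mark or build the trophoblast lineage were followed in mouse embryonic stem cells (mESCs) that overexpressed RBBP4 or RBBP7. The 10 genes were fixed by name and not by their values: the transcription factors Cdx2, Eomes, Elf5, Gata3, Gata2, Tfap2c, Tead4 and Hand1 and the keratins Krt8 and Krt18, 10 of the 55401 genes measured. RNA was measured in 6 libraries of the 46C mESC line, 2 in each of 3 groups. By the study's methods, the lines with the biotin tag alone, tagged Rbbp4 or tagged Rbbp7 all carried the biotin ligase BirA with a V5 tag, delivered by lentivirus. The control cells, titled 46C_ctrl, are taken as the line that stably expressed the biotin tag alone. Their title does not name the tag. If they were uninfected cells, overexpression could not be told apart from the ligase, the infection and the drug selection in comparisons with control. The Rbbp4 overexpression (OE) and Rbbp7 OE cells stably expressed biotin-tagged Rbbp4 or biotin-tagged Rbbp7 from the same kind of vector, above their own Rbbp4 and Rbbp7. By the study's methods each line was selected with drugs after infection, and no isolation of single clones is described. All cells grew without feeder cells, on gelatin, in medium with serum, leukemia inhibitory factor, the GSK3 inhibitor Chir99021 and the MEK inhibitor PD0325901, and none received a further treatment. No trophoblast differentiation was induced in any library.

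Trophoblast is the outer lineage of the early embryo and gives rise to the placenta. TEAD4, with the Hippo pathway coactivator YAP1, switches on Cdx2 and Gata3 in the outer cells of the morula, and CDX2, EOMES, ELF5, TFAP2C and GATA3 then hold trophoblast stem cells in their state. Keratins 8 and 18 pair into the filaments of this epithelium, and HAND1 drives giant cell formation. mESCs come from the inner cells, where OCT4 (Pou5f1) holds Cdx2 down and the Elf5 promoter is methylated. RBBP4 and RBBP7 are histone-binding subunits of several chromatin complexes, among them PRC2 and NuRD. The comparisons asked whether more of either protein moves genes of the trophoblast fate, which the study connects with loss of RBBP4.

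The libraries were those of mESCs. The 8 mESC markers summed to between 7621 and 8573 TPM per library, TPM being a length-scaled share of all transcripts. Most of each sum was Dppa5a, at 4166 to 5134 TPM, so it does not stand for each marker. In Rbbp4 OE 4 of the 8 were above control and 4 below. At an adjusted p under 0.05 in the test below, 1 was called higher and 2 lower, against 3.29% and 8.07% of all genes. These calls were lost under several alternatives, among them no filter, the replicate number as a block and a 2-group fit. The length and GC correction described below left 1 of them, a lower one. The 10 trophoblast lineage genes summed to between 86.6 and 116 TPM. Rbbp4 stood at 146 and 147 TPM in the controls and at 144 and 143 TPM in Rbbp7 OE, and reached 270 and 271 TPM in its own line. Rbbp7 stood at 239 and 237 TPM in the controls and at 208 and 217 TPM in Rbbp4 OE, and reached 725 and 748 TPM in its own line. The mean ratio to control was 1.85 for Rbbp4 and 3.10 for Rbbp7, each in its own line. The vectors carried cDNAs, while TPM divides by annotated transcript length. The extra amounts of the 2 transcripts therefore cannot be compared. The median absolute log2 difference over the genes tested ranged from 0.121 to 0.178 for libraries of the same group and from 0.182 to 0.290 for libraries of different groups. Sequencing depth cannot be read from TPM, so no detection limit is given. The labels do not say whether the 2 libraries of a group came from separate cultures, so the p-values measure only the spread between these libraries.

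The levels of the 10 genes spanned a wide range. Over all 6 libraries Tfap2c had the highest mean, 29.4 TPM, above 71.5% of the genes tested. It was followed by Tead4 at 22.7 TPM, Krt8 at 16.1 TPM, Gata2 at 15.0 TPM and Eomes at 8.13 TPM. Cdx2 at 3.93 TPM and Krt18 at 3.82 TPM were close to each other, and their libraries overlapped. Gata3 was low, at 0.642 TPM. Hand1 at 0.445 TPM and Elf5 at 0.0133 TPM were under the minimum mean of 0.5 TPM and were not tested, which left 8 of the 10 genes for the test. Gata3 passed this minimum through its control libraries alone. In bulk RNA, a gene expressed in few cells and a gene expressed weakly in all cells cannot be told apart.

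**Figure D1:**
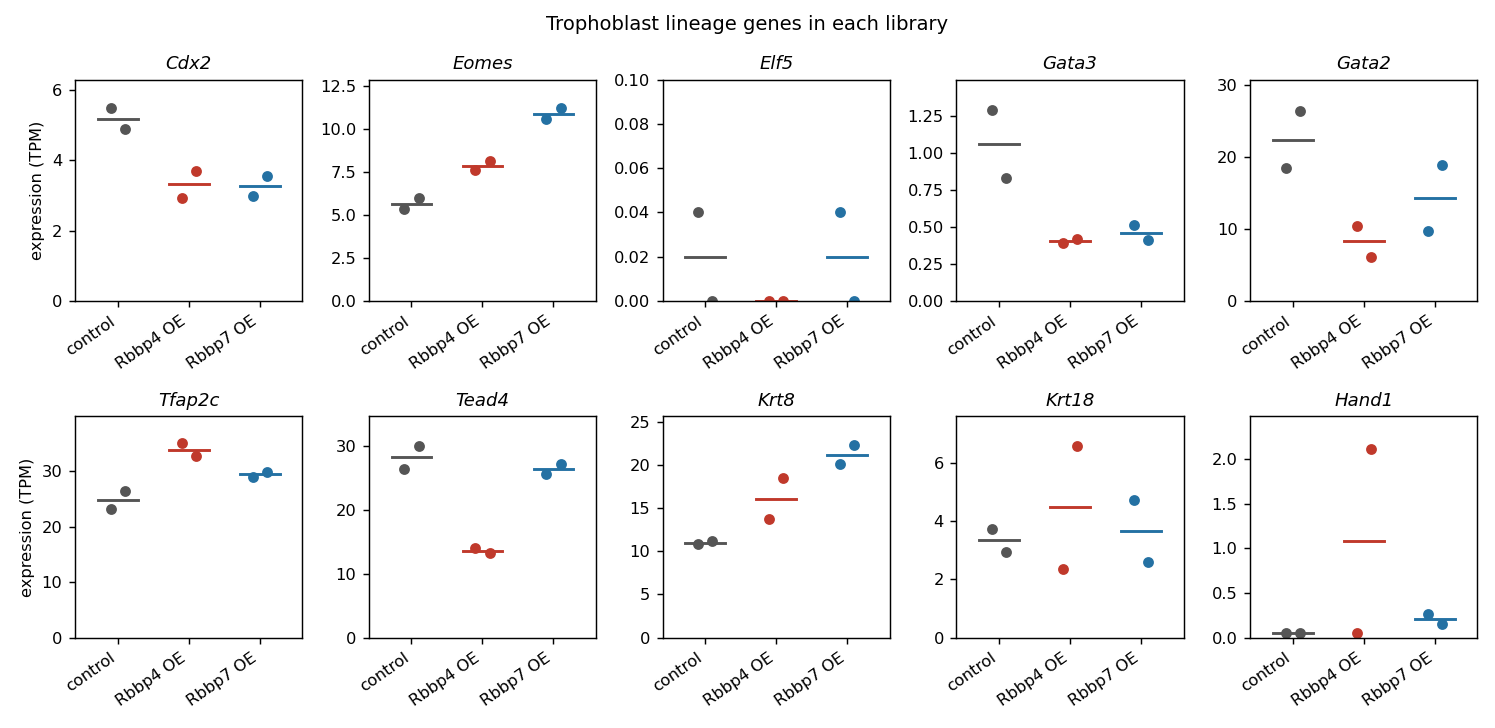
Expression of the 10 trophoblast lineage genes in TPM (vertical axes, each from 0 and scaled to the gene) in control, Rbbp4 OE and Rbbp7 OE. Each point is 1 library and each bar the mean of the 2 libraries of a group. Tead4 is near 13.6 TPM in both Rbbp4 OE libraries, and the other 4 lie at 25.6 TPM or above.

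Differences were tested with limma on log2(TPM + 1) over 14156 genes, and a log2 difference below is on that scale, where differences of low genes come out too small. At the study's thresholds (adjusted p under 0.01 by Benjamini-Hochberg, fold over 2) limma called 0 of the 8 genes in Rbbp4 OE against control, where it called 0.516% of all genes. It also called 0 of 8 in Rbbp7 OE against control, where the share over all genes was 0.0353%, and 0 of 8 between the overexpression lines, where it was 0.0494%. At an unadjusted p under 0.05 the counts were 6, 4 and 3 of 8, against 29.6%, 15.4% and 19.0% of all genes. At the looser rule, an adjusted p under 0.05 and any fold, Tead4 fell and Tfap2c rose in Rbbp4 OE, 2 of 8 genes against 11.4% of all genes. The shares of all genes by direction were 3.29% higher and 8.07% lower. In Rbbp7 OE 0 of 8 genes passed, against 0.487% of all genes. Between the lines Tead4 passed, 1 of 8 genes against 0.304% of all genes. Both lines were compared with the same 2 control libraries, so their values are not independent.

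The median log2 difference of the 8 genes was -0.15 for Rbbp4 OE, -0.01 for Rbbp7 OE and -0.22 between the lines. Over all genes tested it was -0.08, -0.004 and -0.08. The list did not move in a single direction: 4 of the 8 values were above 0 and 4 below 0 in each line against control. In Rbbp4 OE the libraries of 7 of the 8 genes did not overlap with the controls, 3 higher and 4 lower, as was true of 57.9% of all genes tested, 20.8% higher and 37.1% lower. In Rbbp7 OE this held for 5 of 8 genes, 3 higher and 2 lower, against 44.5% of all genes, 21.2% higher and 23.4% lower. Between the lines it held for 4 of 8 genes, against 54.7% of all genes. The counts and medians over the 8 genes include Gata3 among the lower values, which its passing through the controls alone had built in, so they only describe the list.

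**Figure D2:**
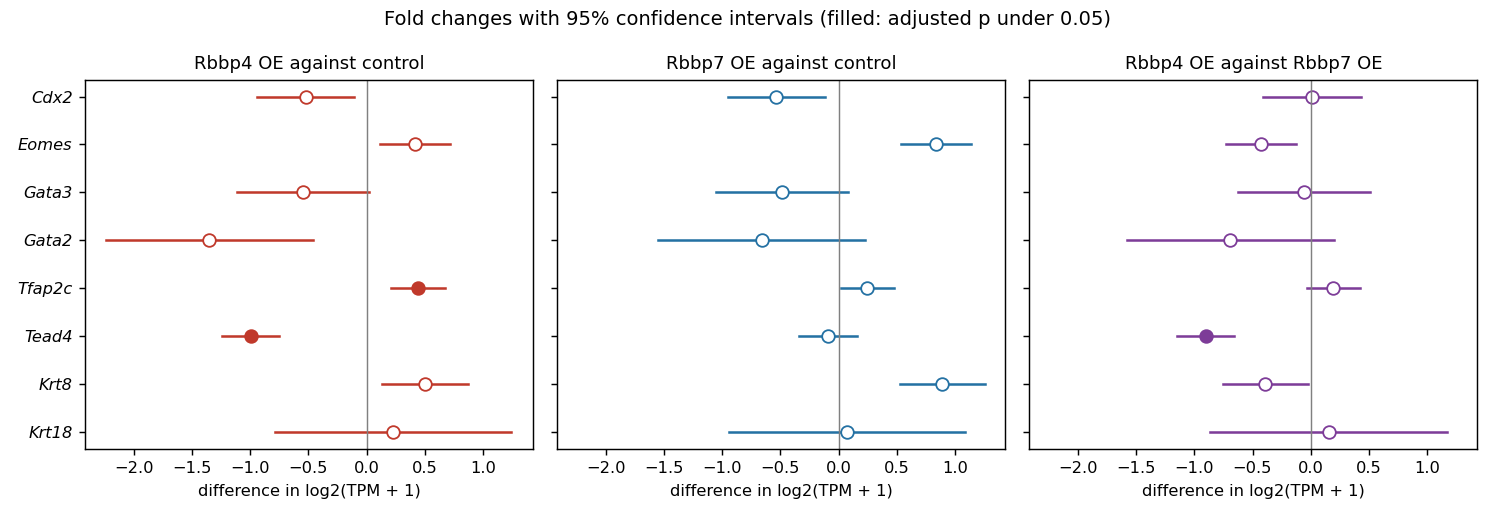
Difference in log2(TPM + 1) (horizontal axes) of the 8 tested genes with 95% confidence intervals from limma, for Rbbp4 OE (left) and Rbbp7 OE (middle) against control and between the overexpression lines (right). Filled points have an adjusted p under 0.05; these are Tead4 at -0.99 and Tfap2c at 0.44 in the left panel and Tead4 at -0.90 in the right panel.

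Tead4 (GRCm38 chromosome 6, 128224288 to 128300823, minus strand), the TEAD factor that acts upstream of Cdx2 in the trophectoderm, fell in Rbbp4 OE. It had 26.29 and 30.0 TPM in the 2 control libraries, 14.01 and 13.19 TPM in those of Rbbp4 OE and 25.55 and 27.06 TPM in those of Rbbp7 OE. The Rbbp4 OE libraries lay below all 4 others, while those of Rbbp7 OE overlapped with control. In Rbbp4 OE the log2 difference was -0.99 (SE 0.10, limma adjusted p = 0.00797), just short of a fold of 2 on that scale, while the mean TPM was 0.483 times that of control. In Rbbp7 OE it was -0.09 (95% interval -0.34 to 0.15, limma adjusted p = 0.725). The difference between the lines was itself tested and was -0.90 (SE 0.10, limma adjusted p = 0.0424). The size held without any single library, at -1.09 to -0.90 against control. The adjusted p against control, however, was 0.0751 and 0.119 without Rbbp4 OE replicate 1 or 2, and 0.0511 and 0.0518 without Rbbp7 OE replicate 1 or 2. Against Rbbp7 OE it was over 0.05 without any 1 of the 6 libraries, from 0.0791 to 0.365.

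The other TEAD genes were compared as the nearest relatives of Tead4, since all 4 TEAD proteins bind the same DNA motif. Tead2 was the most abundant, with 52.7% to 66.4% of the summed TEAD transcripts in each library. Tead4 made up 22.3% and 22.7% of that sum in the controls, 14.4% and 16.1% after Rbbp4 overexpression, and 21.6% and 22.1% after Rbbp7 overexpression. The sum was 117.7 and 132.3 TPM in the 2 control libraries, 97.6 and 81.7 TPM in those of Rbbp4 OE and 118.3 and 122.7 TPM in those of Rbbp7 OE. It was thus lowest in the Rbbp4 OE libraries, and the Tead4 share was lowest there too. Tead1 also fell in Rbbp4 OE, from 22.58 and 29.97 TPM to 15.96 and 14.46 TPM (log2 difference -0.74, SE 0.15, limma adjusted p = 0.0314). Tead2 had a log2 difference of -0.22 and Tead3 of -0.18 (limma adjusted p = 0.269 and 0.614).

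**Figure D3:**
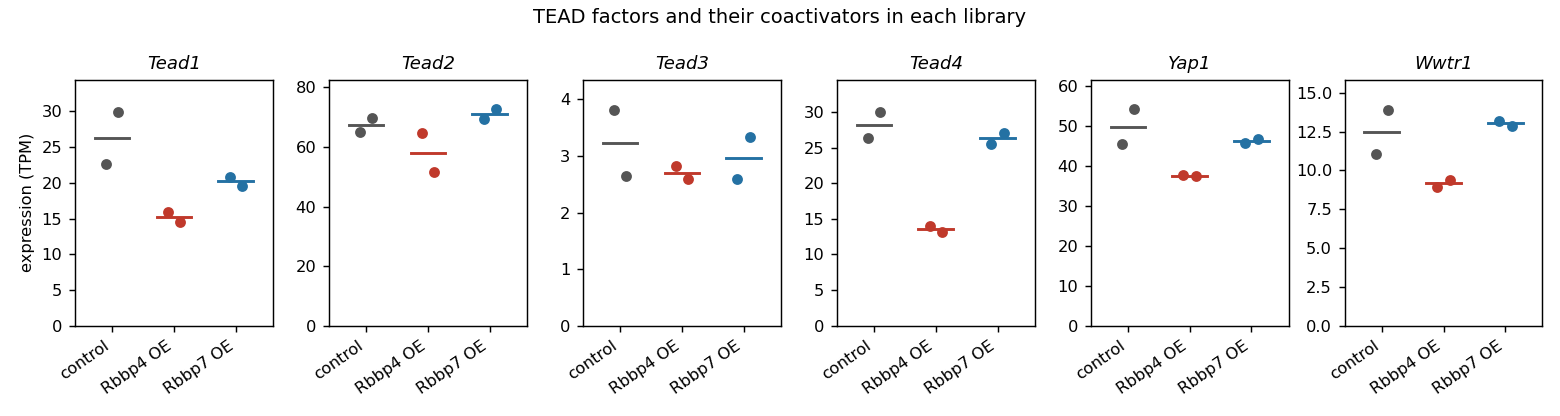
Expression in TPM (vertical axes from 0, scaled to the gene) of the 4 TEAD genes and the coactivators Yap1 and Wwtr1 in each library of control, Rbbp4 OE and Rbbp7 OE. Points are libraries and bars group means; Tead4 falls from a mean of 28.1 TPM in control to 13.6 TPM in Rbbp4 OE.

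The TEAD factors are the output of the Hippo pathway, whose kinases keep YAP1 and WWTR1 out of the nucleus. Of 20 further genes of this pathway 18 were tested, and 3 fell in Rbbp4 OE at an adjusted p under 0.05, with 0 rising, where 8.07% of all genes fell. These were Tead1, Mob1a, a kinase adaptor (log2 difference -0.48, limma adjusted p = 0.0344), and Ccn1, a secreted target of YAP1 (-0.65, limma adjusted p = 0.0492). Ccn2, from the same list, had -0.12 in Rbbp4 OE (limma adjusted p = 0.734). The activity of YAP1 was not tested. The 2 most abundant of the tested genes were Tead2 and Nf2, an upstream activator of the kinases, at -0.22 for each in Rbbp4 OE. Yap1 itself went from 45.37 and 54.04 TPM in control to 37.53 and 37.34 TPM in Rbbp4 OE, a log2 difference of -0.39 that did not pass (limma adjusted p = 0.0523), though it passed when only genes with a mean of at least 5 TPM were tested. All 18 values were below 0 in Rbbp4 OE, with a median of -0.33, where 59.0% of all genes tested were below 0. In Rbbp7 OE 9 of the 18 were below 0, with a median of -0.04, and limma called 0 of them, also 0 at an unadjusted p under 0.05. Between the lines all 18 were again below 0, as were 63.3% of all genes, with a median of -0.31. There limma called 0 of them, with 9 at an unadjusted p under 0.05, against 19.0% of all genes. Under median-of-ratios scaling and quantile normalization all 18 stayed below 0 in Rbbp4 OE against control, and 16 did between the lines, but the call of Ccn1 was lost. All 3 Hippo calls were lost without a filter, in a fit with the replicate number as a block, in a 2-group fit of control and Rbbp4 OE alone and without control replicate 2 or any 1 of the Rbbp4 OE and Rbbp7 OE libraries.

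Transcript length moved with this result. Of the 18 Hippo genes 15 had a longest transcript over 3000 nucleotides, and the median log2 difference of protein-coding genes in Rbbp4 OE fell with length, from 0.04 for transcripts up to 1500 nucleotides to -0.20 above 5000. In Rbbp7 OE the medians of the same length classes lay between -0.01 and -0.003. After a correction for length and GC content, chosen after seeing the data, all 18 values in Rbbp4 OE stayed below 0, with a median of -0.24, and 2 genes, Ccn1 and Tead1, passed. With the same correction Tead4, whose longest transcript has 3076 nucleotides, had a log2 difference of -1.12 in Rbbp4 OE (limma adjusted p = 0.00655).

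Cdx2 and Gata3, which TEAD4 activates in the trophectoderm, had lower values in both overexpression lines. For Gata3 that side was built in by the minimum level, as stated above. Cdx2 (chromosome 5, 147300805 to 147307270, minus strand) is the homeobox factor that sets up the trophectoderm. It had 5.49 and 4.88 TPM in the 2 control libraries, 2.93 and 3.70 TPM in those of Rbbp4 OE and 2.99 and 3.56 TPM in those of Rbbp7 OE. All 4 overexpression libraries were below both controls. The log2 difference was -0.52 in Rbbp4 OE (95% interval -0.94 to -0.10, limma adjusted p = 0.102) and -0.53 in Rbbp7 OE (95% interval -0.95 to -0.12, limma adjusted p = 0.233). Neither passed over all genes tested. Between the lines it was 0.01, with an interval of -0.41 to 0.43.

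Gata3 (chromosome 2, 9857078 to 9890034, minus strand), a zinc-finger factor that acts beside CDX2, had 1.29 and 0.83 TPM in control. Rbbp4 OE had 0.39 and 0.42 TPM and Rbbp7 OE 0.51 and 0.41 TPM, again without overlap with control. Its log2 difference was -0.54 in Rbbp4 OE (95% interval -1.11 to 0.02, limma adjusted p = 0.185) and -0.49 in Rbbp7 OE (95% interval -1.06 to 0.08, limma adjusted p = 0.385). The level was low in every library and neither difference passed. Gata3 met the minimum level through its control libraries alone, which built in lower values in the lines. Its differences, intervals and lack of overlap therefore only describe the libraries.

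Gata2 (chromosome 6, 88193891 to 88207032, plus strand), which acts with GATA3 in trophoblast and is also a factor of blood progenitors, was more abundant and more variable. It had 18.44 and 26.46 TPM in the 2 control libraries, 10.49 and 6.13 TPM in those of Rbbp4 OE and 9.71 and 18.91 TPM in those of Rbbp7 OE. Both Rbbp4 OE libraries were below both controls, whereas the Rbbp7 OE libraries overlapped with each of the other groups. The log2 difference was -1.35 in Rbbp4 OE (SE 0.37, limma adjusted p = 0.0660), the widest of the 8 genes, and it did not pass. It did pass when only genes with a mean of at least 5 TPM were tested (limma adjusted p = 0.0367). In Rbbp7 OE it was -0.66 (limma adjusted p = 0.453).

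Eomes and Krt8 lay on the other side of control and stood highest in Rbbp7 OE. Eomes (chromosome 9, 118478212 to 118486132, plus strand), a T-box factor needed for trophoblast stem cells and used again in mesoderm and endoderm, had 5.32 and 6.01 TPM in control. Rbbp4 OE had 7.59 and 8.12 TPM and Rbbp7 OE 10.57 and 11.19 TPM. The 3 groups did not overlap. The log2 difference was 0.41 in Rbbp4 OE (limma adjusted p = 0.0822) and 0.84 in Rbbp7 OE (95% interval 0.54 to 1.14, limma adjusted p = 0.0689). Under median-of-ratios scaling and quantile normalization the difference in Rbbp4 OE did pass, at 0.51 and 0.52 (limma adjusted p = 0.0403 and 0.0369). Between the lines it was -0.42 (95% interval -0.72 to -0.12, limma adjusted p = 0.172). The 8 mesoderm markers, among which EOMES also acts, summed to 7.09 and 7.19 TPM in the 2 control libraries, 10.5 and 9.81 TPM in those of Rbbp4 OE and 9.36 and 8.95 TPM in those of Rbbp7 OE. Of these 8 markers 3 passed the minimum level, and limma called 0 of them in any comparison. In Rbbp4 OE all 3 had values above 0, with a median of 0.41. In Rbbp7 OE 2 of the 3 had values above 0 and 1, Gsc, below 0, with a median of 0.29. The part of the mesoderm markers in the Eomes values was not tested.

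Krt8 (chromosome 15, 101996698 to 102004482, minus strand), the type II keratin of simple epithelia, had 10.78 and 11.13 TPM in the 2 control libraries, 13.75 and 18.42 TPM in those of Rbbp4 OE and 20.1 and 22.28 TPM in those of Rbbp7 OE. Its 3 groups did not overlap either. Its log2 difference was 0.50 in Rbbp4 OE (limma adjusted p = 0.0822) and 0.89 in Rbbp7 OE (95% interval 0.52 to 1.26, limma adjusted p = 0.0886), and neither passed. When only genes with a mean of at least 5 TPM were tested, Eomes and Krt8 passed in Rbbp7 OE (limma adjusted p = 0.0499 and 0.0461). A processed copy, Krt8-ps, is 98.6% identical to Krt8 over 99.6% of its own length, and it was listed at 0 TPM in 5 libraries and at 0.12 TPM in Rbbp7 OE replicate 1.

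Krt18 (chromosome 15, 102028180 to 102032027, plus strand), the type I partner of KRT8 and its neighbour on the chromosome, did not show the pattern of Krt8. It had 3.72 and 2.95 TPM in the 2 control libraries, 2.37 and 6.57 TPM in those of Rbbp4 OE and 4.72 and 2.6 TPM in those of Rbbp7 OE. All groups overlapped, and the 2 libraries of Rbbp4 OE spanned the range of all 6. The log2 difference was 0.23 in Rbbp4 OE and 0.07 in Rbbp7 OE, with intervals of -0.79 to 1.24 and -0.94 to 1.09 (limma adjusted p = 0.761 and 0.965). Without Rbbp4 OE replicate 2 the difference in Rbbp4 OE was -0.36.

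Promoter sequences are shown for the 4 genes that lay on the same side of control in both lines without overlap and had an entry in the RefSeq promoter table (GRCm38.p6). Cdx2 and Gata3 were lower and Eomes and Krt8 higher, the side of Gata3 being built in by the minimum level. Each stretch ends where the annotated transcript begins, or earlier, and reads along the strand of the gene. That of Gata3 precedes a start that lies within the span of its longer annotated transcripts. Capitals mark a match to a searched motif: a CCAAT box in Cdx2 (on the opposite strand) and Eomes, the AP-2 motif GCCNNNGGC in Gata3, and the GATA motif AGATAA in Krt8.
Cdx2 (chr5:147307271-147307499, minus strand): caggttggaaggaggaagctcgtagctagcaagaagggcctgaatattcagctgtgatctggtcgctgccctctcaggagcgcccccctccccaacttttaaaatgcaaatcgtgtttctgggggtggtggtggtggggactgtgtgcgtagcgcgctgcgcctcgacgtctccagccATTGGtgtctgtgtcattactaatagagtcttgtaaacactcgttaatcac
Gata3 (chr2:9878601-9878850, minus strand): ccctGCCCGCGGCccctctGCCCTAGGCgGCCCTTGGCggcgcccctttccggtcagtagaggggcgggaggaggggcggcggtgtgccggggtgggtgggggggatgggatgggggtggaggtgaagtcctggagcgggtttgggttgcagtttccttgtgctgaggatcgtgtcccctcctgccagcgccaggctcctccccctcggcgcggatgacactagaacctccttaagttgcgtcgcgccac
Eomes (chr9:118477939-118478188, plus strand): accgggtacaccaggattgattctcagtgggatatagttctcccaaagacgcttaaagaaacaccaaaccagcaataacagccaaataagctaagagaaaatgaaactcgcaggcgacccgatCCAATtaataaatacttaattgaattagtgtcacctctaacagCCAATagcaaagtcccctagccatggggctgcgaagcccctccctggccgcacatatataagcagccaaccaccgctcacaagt
Krt8 (chr15:102004483-102004592, minus strand): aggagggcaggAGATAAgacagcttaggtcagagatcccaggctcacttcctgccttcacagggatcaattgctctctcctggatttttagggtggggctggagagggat

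Motifs were searched on both strands in the 250 bases before each RefSeq start. The table held 9 such windows for 7 of the 10 genes. Of their bases, 21 in Cdx2, 140 in Krt8 and 36 in Krt18 lie within the annotated transcript. So do all 250 of 1 window each of Gata2 and Elf5, and 6 of the other Elf5 window. The 6 motifs were GGAATG for TEAD, AGATAA for GATA, GCCNNNGGC for AP-2, TTTATGG for CDX, TATAAA for the TATA box and CCAAT for the CCAAT box. The TEAD motif was found in 1 window each of Gata2 and Elf5, both inside the annotated transcript, and not in those of Cdx2, Gata3, Eomes, Krt8 or Krt18, and 12.6% of the 32851 promoters in the table held it. Gata3 held 3 AP-2 matches that do not overlap, at 246, 231 and 221 bases before the start. Cdx2, Gata2 and Krt18 held 1 each, where 13.7% of promoters held at least 1. The AP-2 matches of Cdx2 and Gata2 lie within the annotated transcript. Cdx2 held 1 CCAAT box and Eomes and Gata2 2 each, against 33.8% of promoters with at least 1. Both CCAAT boxes of Gata2 also lie within the annotated transcript. Krt8 held 1 GATA match, against 9.99% of promoters. A match is a run of letters and not a measured binding site.

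Tfap2c (chromosome 2, 172549593 to 172558622, plus strand) encodes AP-2 gamma, which keeps trophoblast stem cells and is also active in naive mESCs. It rose in Rbbp4 OE. It had 23.13 and 26.37 TPM in the 2 control libraries, 35.01 and 32.72 TPM in those of Rbbp4 OE and 29.0 and 29.94 TPM in those of Rbbp7 OE. Rbbp4 OE was highest and Rbbp7 OE lay between, with no overlap among the groups. Against control the Rbbp4 OE difference was 0.44 on the log2 scale (SE 0.094, limma adjusted p = 0.0385), a mean level 1.37 times that of control. In Rbbp7 OE it was 0.25 (95% interval 0.02 to 0.48, limma adjusted p = 0.299), and between the lines 0.19 (95% interval -0.04 to 0.42, limma adjusted p = 0.325). The call in Rbbp4 OE was lost without any 1 of the 6 libraries (limma adjusted p from 0.0631 to 0.193) and after the length and GC correction (limma adjusted p = 0.0510).

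Elf5 and Hand1 were near 0. Elf5 (chromosome 2, 103411688 to 103450989, plus strand), whose product locks in the trophoblast fate, was listed at 0.04 TPM in 1 control and 1 Rbbp7 OE library and at 0 in the other 4. Hand1 (chromosome 11, 57828705 to 57832818, minus strand), a factor of giant cells and of extraembryonic mesoderm, had 0.05 TPM in each control, while Rbbp4 OE had 0.05 and 2.11 TPM and Rbbp7 OE 0.26 and 0.15 TPM. The high value belonged to Rbbp4 OE replicate 2, the library that also had the highest Krt18. The levels are too low for a fold.

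The rest of the trophoblast program was read from further lists. Of 15 regulators of trophoblast stem cells, all tested, 2 fell and 0 rose in Rbbp4 OE, where 8.07% of all genes fell. Ets2, an ETS factor that supports Cdx2 and Eomes in these cells, went from 15.25 and 19.68 TPM to 8.30 and 9.11 TPM (log2 difference -0.92, limma adjusted p = 0.0182). Tfap2a, which encodes AP-2 alpha, went from 6.58 and 5.35 TPM to 2.6 and 2.27 TPM (-1.02, limma adjusted p = 0.0315), the opposite direction to its paralog Tfap2c. Both calls were lost in the 2-group fit and without control replicate 2 or any 1 of the Rbbp4 OE and Rbbp7 OE libraries, and that of Tfap2a also without a filter and without control replicate 1. In Rbbp7 OE limma called 0 of the 15, with 6 at an unadjusted p under 0.05, against 15.4% of all genes. The 2 most abundant of the 15 were Klf5 and Bmp4. Klf5, a factor shared by trophoblast and mESCs, had a log2 difference of -0.37 in Rbbp4 OE and 0.20 in Rbbp7 OE (limma adjusted p = 0.0797 and 0.453). Bmp4, a secreted signal of the BMP family, stood at 9.54 and 9.26 TPM in the controls, at 12.23 and 12.55 TPM in the Rbbp4 OE libraries and at 20.05 and 31.64 TPM in Rbbp7 OE. Its groups did not overlap, and its log2 difference of 1.33 in Rbbp7 OE did not pass (95% interval 0.84 to 1.83, limma adjusted p = 0.0706). When only genes with a mean of at least 5 TPM were tested, Bmp4 passed in Rbbp7 OE and Klf5 in Rbbp4 OE. The list's median was -0.01 in Rbbp4 OE and -0.09 in Rbbp7 OE.

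Genes of placental differentiation were mostly silent. Of 18, 9 were listed at 0 TPM in every library, among them the prolactin family genes of giant cells, and 3 passed the minimum level. Peg10, an imprinted gene that the placenta needs, fell in Rbbp4 OE from 17.71 and 22.67 TPM to 10.15 and 8.69 TPM (log2 difference -1.02, limma adjusted p = 0.0156), a call lost in the 2-group fit and without control replicate 2 or any 1 of the Rbbp4 OE and Rbbp7 OE libraries. Peg10 was thus 1 of the 3 tested genes, where 8.07% of all genes fell in Rbbp4 OE. It had 11.06 and 11.23 TPM in Rbbp7 OE (-0.79, limma adjusted p = 0.104). Phlda2, another imprinted placental gene and the other of the 2 most abundant, had a log2 difference of 0.51 in Rbbp4 OE and -0.48 in Rbbp7 OE (limma adjusted p = 0.150 and 0.329).

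Of 16 epithelial genes that the trophectoderm uses, 15 were tested. Cldn4, a tight junction claudin, rose in Rbbp4 OE from 54.38 and 52.97 TPM to 66.69 and 65.17 TPM (log2 difference 0.29, limma adjusted p = 0.0375). That was 1 of 15 genes, and 0 fell, where 3.29% of all genes rose and 8.07% fell. Ezr, which links actin to the membrane, had a log2 difference of 0.08. In Rbbp7 OE limma called 0 of the 15, with 3 at an unadjusted p under 0.05, against 15.4% of all genes. Of 10 factors that hold mESCs away from trophoblast, 2 rose and 1 fell in Rbbp4 OE, against the same shares of all genes. Pou5f1, the most abundant, rose by 0.25 on the log2 scale (limma adjusted p = 0.0334), and Mbd3, a NuRD subunit, rose by 0.24 (limma adjusted p = 0.0447). Nanog, the next most abundant, fell by 0.23 (limma adjusted p = 0.0393), a call lost under median-of-ratios scaling and quantile normalization. After the length and GC correction, under the replicate block, in the 2-group fit and without control replicate 2 or any 1 of the Rbbp4 OE and Rbbp7 OE libraries limma called 0 genes of these last 2 lists. Without a filter it called 0 of the 10 factors.

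**Figure D4:**
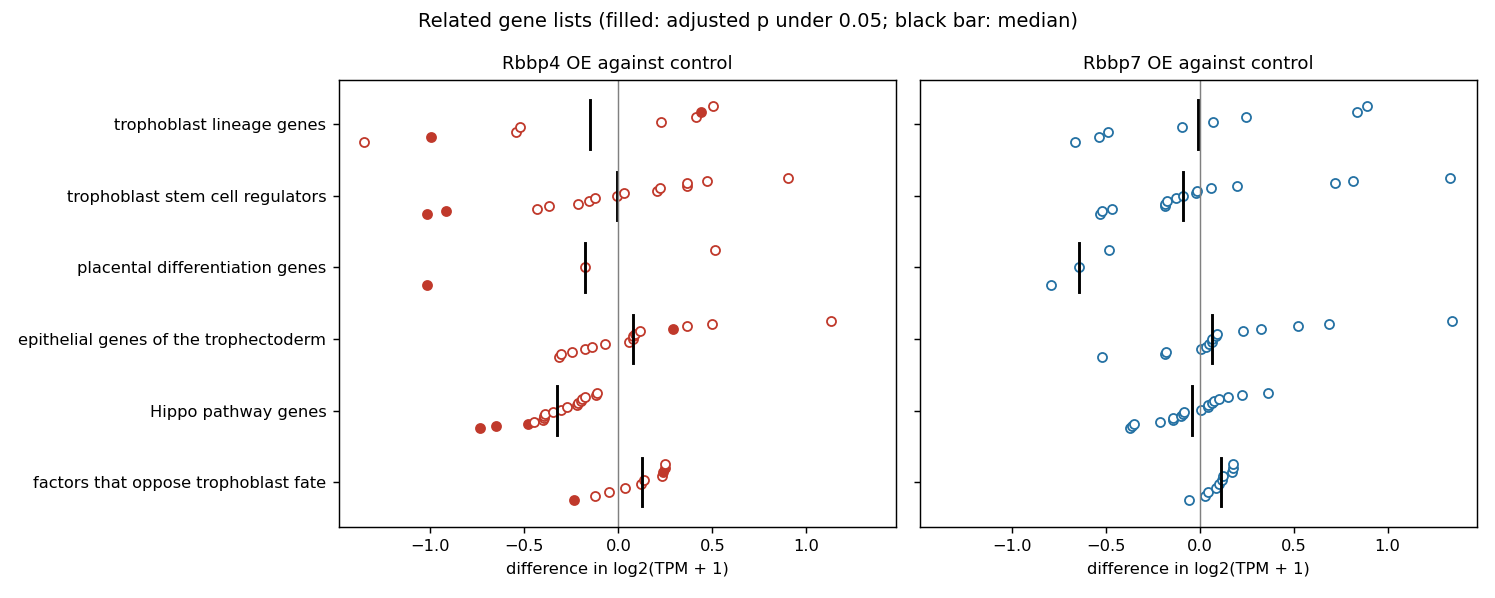
Difference in log2(TPM + 1) (horizontal axes) of each tested gene in the trophoblast lineage genes and the 5 related lists, in Rbbp4 OE (left) and Rbbp7 OE (right) against control. Filled points have an adjusted p under 0.05 and black bars are list medians; the Hippo pathway genes have 18 of 18 values below 0 in Rbbp4 OE and 9 of 18 in Rbbp7 OE.

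Markers of other cell types were checked beside these values. The 12 primitive endoderm markers summed to 43.2 to 57.4 TPM per library, most of it Lama1, and the defining factors Gata6, Gata4, Sox17 and Sox7 were at 0.39 TPM or less in every library. Foxa2 reached 1.86 TPM in Rbbp4 OE replicate 1, against 0.67 TPM or less elsewhere, and Dab2 reached 2.01 TPM in Rbbp7 OE replicate 1, against 0.55 TPM or less elsewhere. The 8 fibroblast markers summed to 5.18 and 5.77 TPM in the 2 control libraries, 10.1 and 12.5 TPM in those of Rbbp4 OE and 17.4 and 9.35 TPM in those of Rbbp7 OE, with Postn and Lum listed at 0 in all 6. In all but Rbbp7 OE replicate 1, most of that sum was Thy1, which rose in Rbbp4 OE (log2 difference 0.96, limma adjusted p = 0.0192), a call lost without a filter, in the 2-group fit and without any 1 library. Rbbp7 OE replicate 1 also had 6.39 TPM of Col3a1, at 0.06 TPM or less in the other libraries. The same library had 56.9 TPM of Lgals3, at 14.3 TPM or less in the others. Lgals3 is from the epithelial list above and not from the fibroblast list. Col1a1 had 0.81 and 0.86 TPM and Col1a2 1.3 and 0.79 TPM in the 2 Rbbp7 OE libraries, against 0.46 and 0.11 TPM or less in the other groups. The part of these markers in the Krt8 and Eomes values was not tested.

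Neighbouring genes were compared to see whether wider regions differed. Of 36 tested neighbours that are not among the 10 genes, 3 passed in Rbbp4 OE, where 11.4% of all genes did, and 0 in Rbbp7 OE or between the lines. Of the 2 nearest tested protein-coding genes on each side of Tead4, Tulp3, 20.3 kb away, fell in Rbbp4 OE by 0.42 on the log2 scale (limma adjusted p = 0.0381). The other 3, Rhno1, Tspan9 and Prmt8, had values of -0.14, -0.24 and -0.72 (limma adjusted p = 0.424, 0.305 and 0.0863). Rab7, 149 kb from Gata2, fell by 0.41 (limma adjusted p = 0.0414), while the nearer Rpn1 and Eefsec had values of 0.035 and -0.17 (limma adjusted p = 0.729 and 0.243). Sap30l, 18.5 kb from Hand1, rose by 0.71 in Rbbp4 OE (limma adjusted p = 0.00797). No neighbour of Cdx2, Eomes, Gata3, Tfap2c, Elf5 or Krt8 passed in any comparison. Genes whose annotation overlaps Eomes, Gata3, Tead4 or Krt8 were at 0.13 TPM or less in every library.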

How the data were processed

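Bulk poly(A) RNA-seq of 46C mESCs was deposited as 1 table of TPM values per library. To make the deposited TPM, the authors used Trim_galore on the reads, STAR for alignment to mm10, and RSEM with a GENCODE annotation. TPM divides by transcript length and scales each library to a fixed total, so depth is unknown and the study's count model (DESeq2) could not be run. A TPM of 0 can be a failed estimate. Whether strand was used in counting is not given in the sources used here.

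Groups came from the sample labels. Gene names and positions are those of GENCODE M21 (GRCm38), found through the identifier without version for 55141 of 55401 genes. Genes with a mean of at least 0.5 TPM (14156) were tested with limma 3.58.1 in R 4.3.3 (limma-trend, log2(TPM + 1), all 6 libraries in 1 fit, 3 residual and 3.103 prior degrees of freedom, two-sided), and p-values were adjusted over all of them. The fit was tested on simulated data. The 2 call rules were the study's thresholds and an adjusted p under 0.05. Transcript copies were searched with blastn 2.17.0 at 95% identity over 80% of the length.

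The genes, lists and tests were chosen with earlier results of these data known. Named were all 10 genes, Rbbp4 and Rbbp7, from each related list the genes with an adjusted p under 0.05 in any comparison and the 2 most abundant, and the nearest tested neighbours. Yap1, Tead3, Ccn2, Lama1, Col3a1, Lgals3, Thy1 and the defining endoderm and fibroblast markers were named after their values were seen or as markers. Replicate numbers did not pair the libraries (correlation of replicate differences between groups -0.03 to 0.03). Alternatives were no filter, a mean of at least 5 TPM, pseudocounts of 0.1 or 5, a robust trend, quantile normalization, median-of-ratios scaling, 2-group fits, a block on replicate number, each library left out and, chosen after seeing the data, a spline correction for transcript length and GC content. The values of 1 gene that the rule for named genes would name are not reported here.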

Additional observations from a re-analysis of the deposited data

Results flagged for a closer look

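The effect on Tead4 differed between the lines: Rbbp4 OE minus Rbbp7 OE was -0.9032 on the log2 scale (limma adjusted p = 0.0424), with both Rbbp4 OE libraries below both Rbbp7 OE libraries. Hand1 was too low for the test, and both Rbbp7 OE libraries, with a mean of 0.205 TPM, were above the 0.05 TPM of each control, while 1 Rbbp4 OE library was at the control level and the other at 2.11 TPM.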

How the results depend on the processing

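Of 375 alternative values for single genes, 337 kept their direction and side of the threshold, 24 lost a call, 5 gained one and 9 changed sign. At the study's thresholds the count in Rbbp4 OE went from 0 to 1 (Tead4) with a pseudocount of 0.1 and after the length and GC correction. At an adjusted p under 0.05 the count of 2 in Rbbp4 OE became 1 (Tead4) without a filter, under the replicate block, in the 2-group fit and after the length and GC correction, and it ranged from 0 to 1 when a library was left out. It became 3 at a mean of at least 5 TPM (with Gata2) and under median-of-ratios scaling and quantile normalization (with Eomes). In Rbbp7 OE the count of 0 became 2 (Eomes, Krt8) at a mean of at least 5 TPM. Between the lines the count of 1 became 0 with a pseudocount of 5, without a filter, under the replicate block and in the 2-group fit, and was 0 without any 1 library. A left-out library leaves a group with 1 sample, which is assumed to vary like the others. Changes of sign came from Krt18, with -0.36 to 0.81 in Rbbp4 OE, -0.26 to 0.41 in Rbbp7 OE (-0.06 without control replicate 2) and -0.43 to 0.74 between the lines (-0.18 without Rbbp7 OE replicate 2) when a library was left out, from Cdx2 between the lines (-0.12 to 0.14 likewise, -0.09 without Rbbp7 OE replicate 1, and -0.060 after the length and GC correction), and from Tead4 in Rbbp7 OE (0.000241 without control replicate 2, -0.18 without control replicate 1). Over all genes the count at an adjusted p under 0.05 in Rbbp4 OE was 1609, against 709 without a filter, 900 under the replicate block, 158 in the 2-group fit and 47 to 1574 without 1 library. In Rbbp7 OE it was 69, against 9, 9, 1 and 2 to 53, and 137 at a mean of at least 5 TPM. Between the lines it was 43, against 28, 9, 8 and 8 to 98. At the study's thresholds these counts were 73 in Rbbp4 OE (0 to 92 over the alternatives), 5 in Rbbp7 OE (0 to 8) and 7 between the lines (0 to 42). The replicate block lost the Tfap2c call (limma adjusted p = 0.0689) and the Tead4 call between the lines (0.130), and the numbers share no source in the labels. Apart from fewer samples or other genes tested, the cause of these changes was not tested. With 2 libraries a group and TPM alone, differences of genes as low as Gata3 cannot be resolved.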

Other observations

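Outside the rule for named genes, the values of 2 more genes stood apart. Plet1, a surface protein of trophoblast progenitors, had 0.50 and 1.38 TPM in the 2 control libraries, 2.18 and 2.93 TPM in those of Rbbp4 OE and 2.36 and 2.29 TPM in those of Rbbp7 OE, with log2 differences of 0.90 and 0.82 (limma adjusted p = 0.0822 and 0.241). Aqp3, a water channel, had 154.59 and 168.48 TPM in the 2 control libraries, 127.49 and 131.29 TPM in those of Rbbp4 OE and 106.29 and 119.06 TPM in those of Rbbp7 OE, with log2 differences of -0.32 and -0.52 (limma adjusted p = 0.0521 and 0.0699), and it passed in both lines when only genes with a mean of at least 5 TPM were tested. Plet1 and Aqp3 were chosen after their values were seen.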
